A study of Mus musculus with 12 samples.

Results

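The 10 genes described here, Cd68, Adgre1, Csf1r, Lyz2, C1qa, C1qb, C1qc, Mrc1, Tyrobp and Fcer1g, are used as markers of macrophages in mouse tumours. They were taken by symbol from a deposited table of 24421 gene symbols, and all 10 were found. The samples were ribosome-bound mRNA of subcutaneous melanomas: the highly metastatic B16F10 line (n = 7 libraries) and the poorly metastatic B16F0 line (n = 5), both derived from the B16 melanoma of C57BL/6 mice. All hosts were C57BL/6 mice of the genotype Rpl22fl/flHA;Cdh5(PAC)-CreERT2 and carried the tumour for 12 days. All received Tamoxifen, which activates the Cre recombinase expressed from the Cdh5 promoter, so that their endothelial cells put an HA tag on the ribosomal protein Rpl22. Ribosomes were then precipitated by the tag and their mRNA sequenced, and the labels name the source as endothelial cells of the tumours. Macrophages are not the tagged cells. The values below say how much mRNA of the 10 marker genes the precipitates held, and the sum over these genes is called the macrophage sum. All libraries here were precipitates, and Mrc1 is also made by some endothelium, so that sum need not all be from macrophages.

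Macrophages of a tumour arise largely from blood monocytes and depend on the growth factor CSF1, which signals through Csf1r. They engulf dead cells and debris, degrade them in lysosomes, and are a main source of the complement starter C1q. Many of their surface receptors have no signalling tail of their own and signal through the adaptors Tyrobp and Fcer1g, while the transcription factor PU.1, which binds purine-rich DNA around a GAGGAA core, is needed for most of their gene programme.

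Each group was spread over sequencing lanes 1, 2 and 6, as the library names give them. Totals were 5322510 to 20569186 counts in B16F10 libraries and 10753106 to 17381336 in B16F0 libraries. Whether replicates are separate animals is not in the labels. A p-value therefore reflects the spread among these libraries, which may be technical. Some libraries stood apart. The endothelial gene Cdh5 was at 482 to 764 CPM (counts scaled to a TMM-adjusted total of the tested genes) in B16F10 replicates 4 and 5 and B16F0 replicate 3, and at 78.6 to 206 CPM in the other 9 libraries. The ribosomal RNA symbol Rn45s took 31.4% of counts in B16F10 replicate 5 and 8.91% in B16F0 replicate 5. Background reads, measured as the sum of olfactory, vomeronasal and taste receptor genes, were at 960 CPM in B16F10 replicate 1 and at 777.5 CPM in B16F10 replicate 2, against 10.6 CPM in B16F0 replicate 1, the only B16F0 library of lane 2, here of the plain total without Rn45s. Over all lanes this background averaged 356 ± 368 CPM in B16F10 and 56.8 ± 49.5 CPM in B16F0 (SD, n = 7 and 5).

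All 10 markers had counts in each of the 12 libraries, but as a small part of them. Summed over the 10 genes, they took 0.00269% to 0.0236% of counts in B16F10 libraries and 0.00494% to 0.0270% in B16F0 libraries. The lowest share was that of B16F10 replicate 7, with 362 counts (95% Clopper-Pearson interval 0.00242% to 0.00298%), and the highest that of B16F0 replicate 1, with 3941 counts (0.0261% to 0.0278%). Such intervals cover counting error only, since reads without molecular identifiers are not independent molecules. The summed level was 107, 159, 238, 104, 77.6, 76.0 and 27.5 CPM in B16F10 replicates 1 to 7, and 264, 199, 88.4, 54.1 and 55.6 CPM in B16F0 replicates 1 to 5. It averaged 113 ± 68.1 CPM in B16F10 and 132 ± 94.3 CPM in B16F0 (SD, n = 7 and 5), and the ranges of the groups overlapped.

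Set per transcript length (TPM, counts divided by exon length and scaled to the same total in each library), the marker sum was 62.2 to 509 TPM in B16F10 and 127 to 576 TPM in B16F0. A list of 20 pan-endothelial genes summed to 666 to 4862 TPM in B16F10 and 779 to 5006 TPM in B16F0. The endothelial sum was thus 1.97 to 16.4 times the macrophage sum in B16F10 and 2.00 to 21.2 times in B16F0. A list of 20 melanocytic genes, the markers of the tumour cell itself, summed to 14503 to 27839 TPM in B16F10 and 18743 to 27543 TPM in B16F0, or 48.8 to 354 times and 43.8 to 192 times the macrophage sum. These ratios compare the genes of 3 lists and are no shares of cells, and in a bulk sample fewer cells of a type and less RNA per cell cannot be told apart. The endothelial-rich B16F10 replicates 4 and 5 and B16F0 replicate 3 had marker sums of 104, 77.6 and 88.4 CPM, inside the range of the other libraries. Within lanes the picture was mixed. In lane 1 B16F10 replicate 4 and B16F0 replicate 3 were below B16F10 replicate 3 (238 CPM) and B16F0 replicate 2 (199 CPM). In lane 6 B16F10 replicate 5 was the highest library in CPM, though close to B16F10 replicate 6 (77.6 and 76.0 CPM). In TPM replicate 5 was below replicate 6 (193 and 213 TPM).

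**Figure D1:**
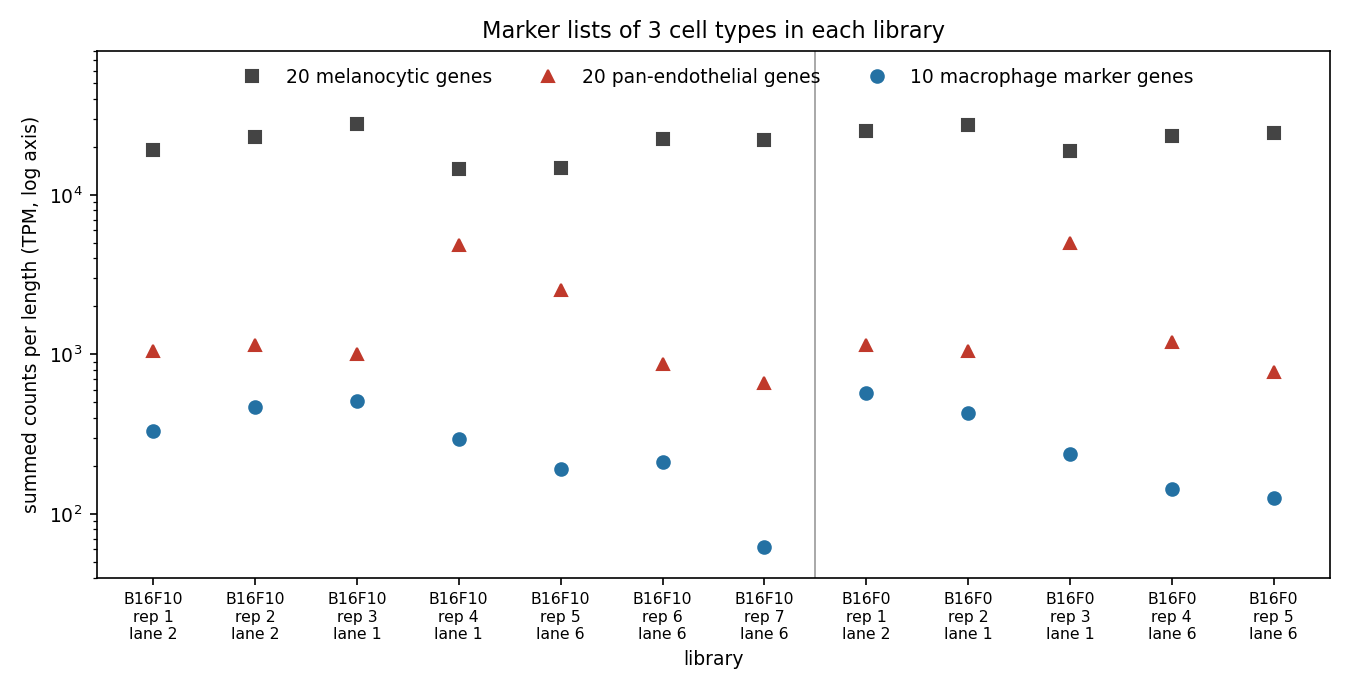
Summed TPM (log axis) of the 10 macrophage markers, the 20 pan-endothelial genes and the 20 melanocytic genes in each library, 1 point per list and library, with B16F10 left of B16F0. The melanocytic sum lies between 14503 and 27839 TPM, and the macrophage sum runs from 62.2 TPM in B16F10 replicate 7 to 576 TPM in B16F0 replicate 1.

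Per length, Lyz2 was the highest marker with a mean of 109 ± 64.0 TPM over the 12 libraries (SD), and it was above the next gene, C1qa, in 12 of 12. C1qa averaged 43.1 ± 29.5 TPM, Mrc1 35.9 ± 26.2 TPM and Cd68 27.9 ± 8.67 TPM. The order within these was loose, since C1qa was above Mrc1 in 8 of 12 libraries and Mrc1 above Cd68 in 6 of 12. C1qb averaged 20.997 ± 12.1 TPM, Fcer1g 16.3 ± 7.85 TPM, Tyrobp 14.4 ± 9.01 TPM and C1qc 13.6 ± 8.24 TPM, with each neighbour above the next in 6 to 8 libraries of 12. The lowest were the surface receptors Adgre1 at 10.8 ± 7.15 TPM and Csf1r at 7.15 ± 4.45 TPM, and Adgre1 was above Csf1r in 11 of 12 libraries. In counts, which grow with transcript length, the order differed. Mrc1, with 6371 bases of exon, gave 24.6% to 46.8% of all marker counts, and Lyz2, with 1316 bases, 16.02% to 31.4%.

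Promoter sequences bear on these genes because markers of 1 lineage share PU.1 as a regulator. RefSeq tables on GRCm38.p6 held the 250 bases before the start site of 6 markers, Cd68, Lyz2, C1qb, C1qc, Mrc1 and Fcer1g. The letters GAGGAA, or TTCCTC on the opposite strand, were found in 4 of the 6, and in 23.1% of 27025 mouse promoters of the same length. Cd68 held 1 match, starting 225 bases before the start site, and Lyz2 and Fcer1g held none. The sequences of C1qb, C1qc and Mrc1 are shown with each match in capitals, and that of Lyz2, the highest marker, for contrast, all 5′ to 3′ on the strand of the gene. The C1qb window is chr4:136886201-136886450 on the minus strand with a match starting 30 bases before the start site. The C1qc window is chr4:136892915-136893164 on the minus strand with a match 193 bases before it. The Mrc1 window is chr2:14229164-14229413 on the plus strand with matches 180, 167 and 35 bases before it. The Lyz2 window is chr10:117282273-117282522 on the minus strand. Start sites here are those of RefSeq, while the gene spans given below are from GENCODE. The windows of C1qc, Lyz2, Mrc1 and Fcer1g reach into those spans, so the distances and the bases searched depend on the start site used. A match of 6 letters is a description of the sequence and not a bound site. Only these exact letters were searched, so a window without them, such as that of Lyz2, is not shown to lack PU.1 sites.
C1qb: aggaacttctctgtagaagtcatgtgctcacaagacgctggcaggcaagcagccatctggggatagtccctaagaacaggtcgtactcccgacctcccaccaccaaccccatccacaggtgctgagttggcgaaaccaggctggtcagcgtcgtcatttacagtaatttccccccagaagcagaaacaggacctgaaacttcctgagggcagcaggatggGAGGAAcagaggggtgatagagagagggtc
C1qc: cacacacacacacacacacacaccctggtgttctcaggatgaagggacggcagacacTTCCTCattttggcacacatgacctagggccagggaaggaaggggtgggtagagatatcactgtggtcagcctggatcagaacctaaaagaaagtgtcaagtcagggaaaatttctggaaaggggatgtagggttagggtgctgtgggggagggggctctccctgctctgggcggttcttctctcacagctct
Mrc1: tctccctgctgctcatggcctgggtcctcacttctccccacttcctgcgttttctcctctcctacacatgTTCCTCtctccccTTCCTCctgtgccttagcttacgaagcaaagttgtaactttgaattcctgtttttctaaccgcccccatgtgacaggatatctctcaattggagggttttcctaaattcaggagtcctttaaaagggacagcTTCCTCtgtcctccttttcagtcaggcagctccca
Lyz2: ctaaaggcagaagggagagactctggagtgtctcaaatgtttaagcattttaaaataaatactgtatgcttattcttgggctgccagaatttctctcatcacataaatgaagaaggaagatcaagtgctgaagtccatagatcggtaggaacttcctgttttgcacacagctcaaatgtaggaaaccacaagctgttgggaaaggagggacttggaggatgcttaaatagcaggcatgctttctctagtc

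The surface receptors are described first. Csf1r (chromosome 18, 61100598 to 61132149, plus strand, GRCm38), the receptor for CSF1 and IL-34, had 2.50 CPM in the lowest B16F10 library, 7.37 in the median one and 16.8 in the highest, against 16.9, 14.9, 3.67, 2.71 and 4.40 CPM in B16F0 replicates 1 to 5. Adgre1 (chromosome 17, 57358691 to 57483527, plus strand), which encodes the F4/80 antigen, had 1.67, 4.24 and 13.6 CPM as lowest, median and highest value in B16F10, against 12.98, 12.3, 6.22, 2.199 and 3.88 CPM in B16F0 replicates 1 to 5. Both genes were high in B16F10 replicates 2 and 3 and in B16F0 replicates 1 and 2, and the groups overlapped. Mrc1 (chromosome 2, 14229392 to 14332057, plus strand), the mannose receptor CD206, is also made by lymphatic and sinusoidal endothelium, so its counts need not all be from macrophages. It had 10.996, 31.7 and 98.3 CPM as lowest, median and highest value in B16F10, against 123, 81.0, 32.0, 21.7 and 23.3 CPM in B16F0 replicates 1 to 5. The gene Csf1r overlaps Hmgxb3 on the opposite strand, and Mrc1 holds the microRNA gene Mir511. Because the sources used here do not give the strand setting of the counting, such genes may share reads.

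The lysosomal and antimicrobial markers come next. Cd68 (chromosome 11, 69664213 to 69666153, minus strand), the lysosomal membrane protein macrosialin, had 3.87, 8.10 and 9.92 CPM as lowest, median and highest value in B16F10, against 9.43, 7.5, 4.18, 5.92 and 4.61 CPM in B16F0 replicates 1 to 5. Its highest library was 2.57 times its lowest, the smallest span of the 10 markers. Lyz2 (chromosome 10, 117277331 to 117282321, minus strand), lysozyme M, had 4.40, 27.1 and 53.1 CPM as lowest, median and highest value in B16F10, against 54.5, 46.0, 27.8, 12.97 and 10.2 CPM in B16F0 replicates 1 to 5. Lyz2 has a near-identical copy, Lyz1, which had 2 to 19 counts per library, so the split of reads between them is uncertain.

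The 3 chains of C1q, the recognition molecule of the classical complement pathway, are encoded side by side on chromosome 4, C1qb at 136880129 to 136886187, C1qc at 136889804 to 136893065 and C1qa at 136895917 to 136898803, all on the minus strand. C1qa had 0.758, 8.34 and 21.4 CPM as lowest, median and highest value in B16F10, against 17.3, 18.4, 5.97, 2.199 and 2.72 CPM in B16F0 replicates 1 to 5. C1qb had 1.06, 5.33 and 9.86 CPM in B16F10, against 8.83, 5.62, 3.50, 1.18 and 1.68 CPM in B16F0, in the same order. C1qc had 0.986, 4.74 and 10.1 CPM in B16F10, against 10.2, 7.74, 3.07, 1.97 and 1.89 CPM in B16F0. All 3 chains were highest in B16F10 replicate 3 and lowest in B16F10 replicate 7 within that line. Per length, C1qa was 0.747 to 2.69 times C1qb in B16F10 and 1.70 to 3.43 times in B16F0, and C1qc was 0.306 to 0.779 times C1qb in B16F10 and 0.495 to 0.939 times in B16F0. The C1q protein holds the chains in equal number, while these length-scaled values were not equal. They rest on union exon lengths of 1931 bases for C1qc, 1088 for C1qb and 1040 for C1qa, which need not be those of the transcripts made. Before that scaling C1qc averaged 5.42 CPM and C1qb 4.92 CPM in B16F10, and 4.97 and 4.16 CPM in B16F0. C1qa spanned 28.2-fold between its lowest and highest library, the widest of the 10 markers, with 10 to 354 counts.

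Tyrobp and Fcer1g are adaptors with an ITAM motif that couple surface receptors to the kinase Syk. Tyrobp (chromosome 7, 30413760 to 30417585, plus strand), also called DAP12, had 0.228, 2.18 and 3.13 CPM as lowest, median and highest value in B16F10, against 4.42, 2.48, 0.767, 0.733 and 0.838 CPM in B16F0 replicates 1 to 5. Fcer1g (chromosome 1, 171229572 to 171234365, minus strand), the Fc receptor gamma chain, had 0.986, 3.37 and 3.94 CPM in B16F10, against 5.89, 2.60, 1.28, 2.59 and 2.2 CPM in B16F0, in the same order. They had the lowest mean CPM of the 10 markers in both groups, with 3 to 66 counts of Tyrobp and 13 to 88 of Fcer1g per library. Per length, Fcer1g was 0.452 to 3.31 times Tyrobp in B16F10 and 0.80 to 2.70 times in B16F0.

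**Figure D2:**
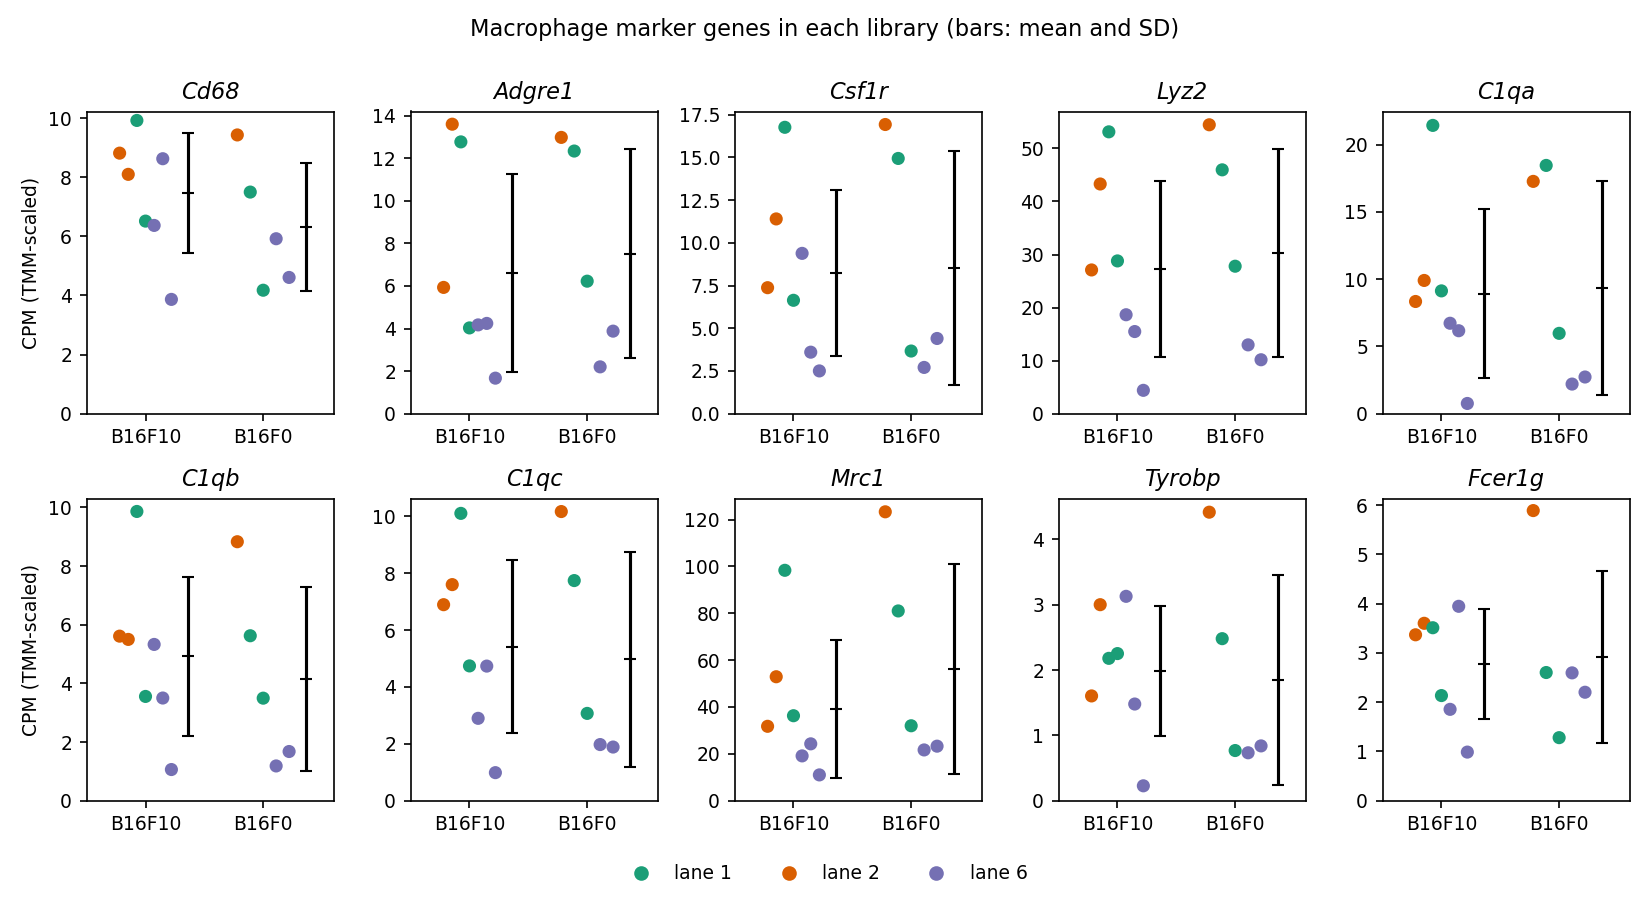
CPM of each of the 10 markers in each library, 1 point per library coloured by lane, with the mean and SD of B16F10 (n = 7, left) and B16F0 (n = 5, right). In each panel the groups overlap, and most points of lane 6 lie low.

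The study's comparison is between a highly and a poorly metastatic tumour. None of the 10 markers passed the test between B16F10 and B16F0 (edgeR's quasi-likelihood F test with the lane as a factor and Benjamini-Hochberg adjustment over 13534 genes, adjusted p under 0.05). Of all genes tested 2.77% passed. The count was also 0 with an unadjusted p under 0.05, against 2008 of all genes, and 0 by DESeq2 and by limma-voom. Log2 fold changes, B16F10 over B16F0, lay above 0 for 6 markers and had a median of 0.15, beside 0.019 for all genes. In the authors' deposited table, too, none of the 10 was past an FDR of 0.05, with FDR values of 0.494 to 0.976. Of the 20 pan-endothelial genes none passed by edgeR, DESeq2 or limma-voom, and none had an unadjusted p under 0.05. Of the 20 melanocytic genes 1 passed, Oca2, which was lower in B16F10 (117 ± 29.8 CPM, against 244 ± 47.3 CPM in B16F0; adjusted p = 0.0038 by edgeR). With an unadjusted p under 0.05, 8 melanocytic genes were lower and 1 higher in B16F10, and DESeq2 called 4 lower and limma-voom 1.

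The precision of the fold changes was moderate. C1qb had the highest, 0.47 ± 0.43 (SE; adjusted p = 0.683 by edgeR), with a 95% interval of 0.728-fold to 2.63-fold; it averaged 4.92 ± 2.71 CPM in B16F10 and 4.16 ± 3.14 CPM in B16F0 (SD). Mrc1 had the lowest, -0.42 ± 0.35 (adjusted p = 0.639), with an interval of 0.439-fold to 1.26-fold; it averaged 39.1 ± 29.4 CPM in B16F10 and 56.2 ± 44.7 CPM in B16F0. The narrowest interval was that of Cd68, 0.814-fold to 1.71-fold around a log2 fold change of 0.24 ± 0.25 (adjusted p = 0.726), and the widest that of Tyrobp, 0.530-fold to 2.76-fold around 0.27 ± 0.55 (adjusted p = 0.877). Lyz2 was at -0.05 ± 0.32 (adjusted p = 0.969) and Csf1r at 0.10 ± 0.43 (adjusted p = 0.947), with intervals of 0.602-fold to 1.56-fold and 0.560-fold to 2.06-fold. Adgre1 and Fcer1g had log2 fold changes of -0.09 and -0.03, and C1qa and C1qc of 0.20 and 0.26.

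The direction also changed with the lane. In lane 2, where B16F10 replicates 1 and 2 stood against B16F0 replicate 1, all 10 differences in mean log2 CPM were below 0, with -1.59 for Mrc1 as the lowest and -0.16 for Cd68 as the nearest to 0. In lane 1, with 2 libraries of each line, 9 of 10 were above 0, and Adgre1 was at -0.28. In lane 6, with 3 B16F10 and 2 B16F0 libraries, they ran from -0.38 for Mrc1 to 0.89 for C1qb. The summed level differed by 0.25 in lane 1, -1.02 in lane 2 and -0.01 in lane 6 on the log2 scale. In lane 2 the B16F10 libraries share a name prefix that the B16F0 library does not have, so tumour line and prefix cannot be told apart there, and the receptor background given above also differed between them. With the receptor background as a covariate, over all lanes, the log2 fold changes, B16F10 over B16F0, were 0.23 for Mrc1, 0.18 for Adgre1, 0.29 for Lyz2 and 0.48 for Fcer1g, all 4 of which were below 0 without it. With the prefix in place of the lane, Lyz2 was at 0.13 and Fcer1g at 0.22. No marker passed in either fit.

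**Figure D3:**
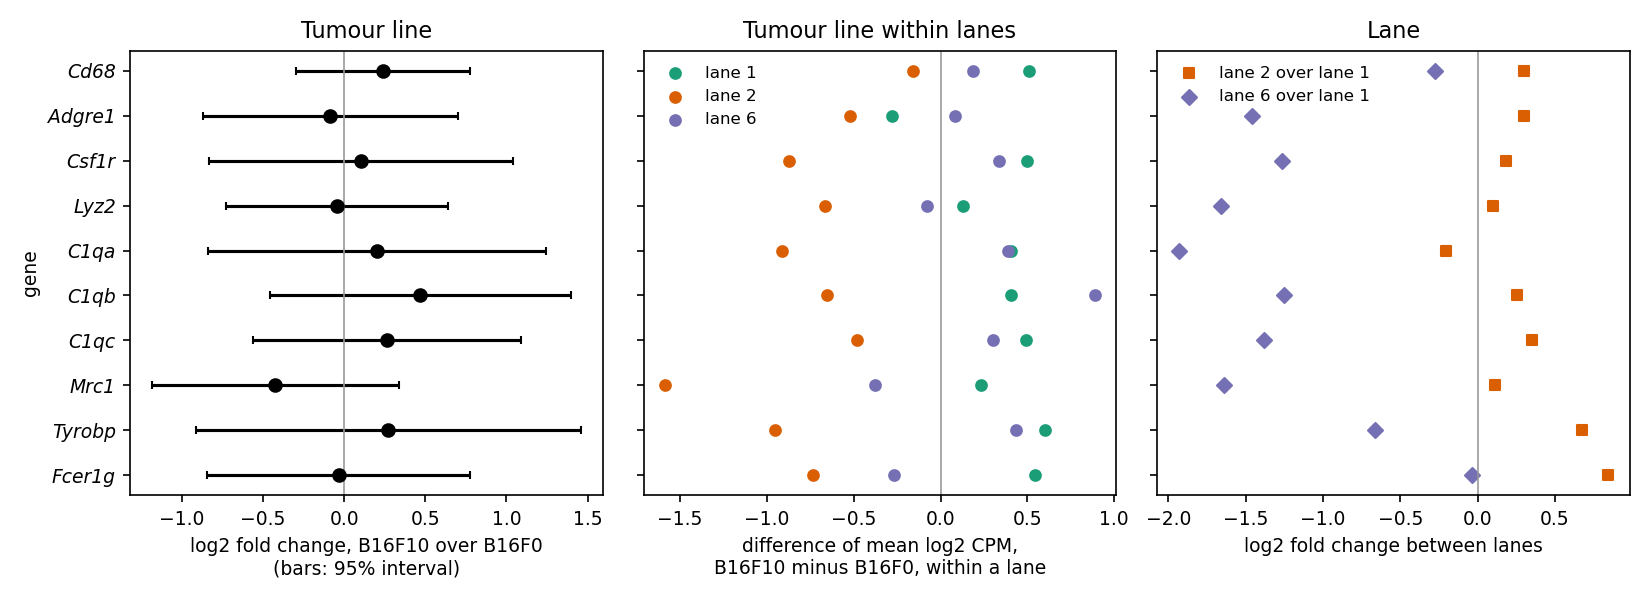
Log2 differences of each marker: left, B16F10 over B16F0 with 95% intervals; middle, B16F10 minus B16F0 within each lane; right, lanes 2 and 6 over lane 1. The intervals on the left all include 0, the lane 2 points in the middle lie below 0, and the lane 6 points on the right lie below 0.

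Between lanes the markers moved further than between tumour lines. Their summed level was 88.4 to 238 CPM in lane 1 (n = 4 libraries), 107 to 264 CPM in lane 2 (n = 3) and 27.5 to 77.6 CPM in lane 6 (n = 5), so that every library of lane 6 was below every library of the other lanes. All 5 libraries of lane 6, and no others, have names without a prefix, so lane and naming series cannot be told apart. Within lane 1 the summed level was 238 CPM in B16F10 replicate 3 and 199 CPM in B16F0 replicate 2, which share a prefix, and 104 CPM in B16F10 replicate 4 and 88.4 CPM in B16F0 replicate 3, which share another. The pair at 104 and 88.4 CPM is also the endothelial-rich pair of lane 1, so prefix and endothelial content cannot be told apart there. Log2 fold changes of lane 6 over lane 1 were below 0 for all 10 markers, with a median of -1.32 beside -0.026 for all genes. Lyz2 passed the test of the lanes (log2 fold change of lane 6 over lane 1 -1.66, adjusted p = 0.0436 by edgeR), as did 3.14% of all genes tested. An unadjusted p under 0.05 was found for 7 of the 10, and the share of all genes at that looser threshold was not counted. Lyz2 was at 4.40 to 18.6 CPM in lane 6, against 27.8 to 53.1 CPM in lane 1, with no overlap. Its call was lost when any single library was left out except B16F10 replicate 5 and B16F0 replicates 1 and 3 (adjusted p up to 0.150). The number of markers past the test was 2 without B16F0 replicate 1, 4 without B16F0 replicate 3, and 7 without the 3 endothelial-rich libraries. How many of all genes passed in those fits was not counted, so a general rise in calls cannot be told apart. Mrc1 was at 10.996 to 24.3 CPM in lane 6 and 32.0 to 98.3 CPM in lane 1 (log2 fold change -1.64, adjusted p = 0.0557), and C1qa at 0.758 to 6.72 and 5.97 to 21.4 CPM (-1.93, adjusted p = 0.0873). Fcer1g was at 0.986 to 3.94 CPM in lane 6 and 1.28 to 3.51 CPM in lane 1, with a log2 fold change of -0.03.

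Several other lists were also low in lane 6. Medians were -1.30 for the 20 pan-endothelial genes (20 of 20 below 0, none passing the test) and -1.33 for 10 fibroblast genes (10 of 10, 3 passing). They were -0.80 for 14 tested pan-leukocyte genes (14 of 14, none passing) and -0.51 for 10 pericyte and smooth muscle genes (8 of 10, 4 passing). Other lists were not low, with medians of -0.09 for 3 tested dendritic cell genes and 1.84 for 2 tested erythroid genes. The melanocytic median was -0.16, with 14 of 20 genes below 0. Ddx3y, on the Y chromosome, had 8.70 to 29.2 CPM in all 5 libraries of lane 6, and was above 1 CPM in 2 of the other 7. The part of these in the lane difference of the markers was not tested.

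Slopes on the content of the other cells were fitted with lane and tumour line in the model. The endothelial score of a library is its mean log2 CPM over the 20 pan-endothelial genes. None of the 10 markers passed the test of the slope on it by edgeR, and none had an unadjusted p under 0.05. Of all genes 4.48% passed with a positive slope and 0.525% with a negative one. Of the 10 slopes 3 were above 0, with a median of -0.12. Of the 20 pan-endothelial genes, which make up the score, 19 had a positive slope past the threshold. Without the 3 endothelial-rich libraries the slopes of 9 markers were above 0, from 0.0050 for Adgre1 to 1.63 for C1qa, and none passed. Csf1r was the only marker that a left-out library moved past the threshold, with a slope of -0.79 without B16F10 replicate 5 (adjusted p = 0.0304).

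On the melanocytic score, made in the same way from the 20 melanocytic genes, the slope was above 0 for all 10 markers, with a median of 1.79 beside -0.018 for all genes. Only Mrc1 passed the test (slope 2.44 ± 0.62 SE log2 units per unit of score, adjusted p = 0.0155 by edgeR), and 12.8% of all genes passed with a positive slope. The share of markers past the threshold was thus near that of all genes. An unadjusted p under 0.05 was found for 3 markers, and the share of all genes at that looser threshold was not counted. Of the 20 melanocytic genes, which make up the score, 12 had a positive slope past the threshold and 1 a negative one. Of the 20 pan-endothelial genes 14 passed with a negative slope, so a higher score also went with less endothelial mRNA. The Mrc1 call was lost without B16F10 replicate 3 (adjusted p = 0.197) and without B16F0 replicate 3 (adjusted p = 0.0611). Without B16F10 replicate 7, the library with the fewest macrophage counts, 5 markers passed, and without B16F10 replicate 5, 3 did. The share of all genes passing in those fits was not counted, so these numbers may not be particular to the markers.

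The markers varied together over the 12 libraries. Pearson's r between the log2 CPM of pairs of markers ran from 0.60 to 0.96 over 45 pairs, with a median of 0.86, and the median was 0.81 once the means of lane and tumour line were removed. Lyz2 and C1qa were the closest pair at 0.96, C1qa and C1qc followed at 0.95, and Csf1r and Fcer1g were the least alike at 0.60. These values are a description, since pairs share libraries and depth. C1qc and C1qa followed the mean of the other markers most closely (0.97 each), and Fcer1g (0.72) and Cd68 (0.83) least. The adaptors Tyrobp and Fcer1g are also made by other myeloid cells such as neutrophils and dendritic cells, and whether this bears on these values was not tested.

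There were 10464 other genes whose mean reached 5 CPM. Those most like the mean of the markers were, in order of Pearson's r over 12 libraries, Mpeg1 (0.98), Arhgap1 (0.95), Ctss (0.93), Dpp9 (0.93), Cybb (0.93), Nckap1l (0.93), Slc25a10 (0.92), Itgam (0.91), Ttf2 (0.91) and Fzr1 (0.90). Mpeg1, which encodes the pore-forming protein perforin-2 of macrophages, averaged 24.1 ± 15.1 CPM in B16F10 and 24.7 ± 15.3 CPM in B16F0 (SD), and stayed at 0.98 with the means of lane and tumour line removed. Ctss encodes the lysosomal protease cathepsin S, Cybb the heavy chain of the phagocyte NADPH oxidase, Nckap1l the actin regulator Hem1 of blood cells and Itgam the integrin chain CD11b. Arhgap1, a GTPase-activating protein, Dpp9, a peptidase, Slc25a10, a mitochondrial carrier, Ttf2, a transcription termination factor, and Fzr1, an activator of the anaphase-promoting complex, are not known as macrophage genes. Of the 10464 genes 204 had r above 0.8.

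**Figure D4:**
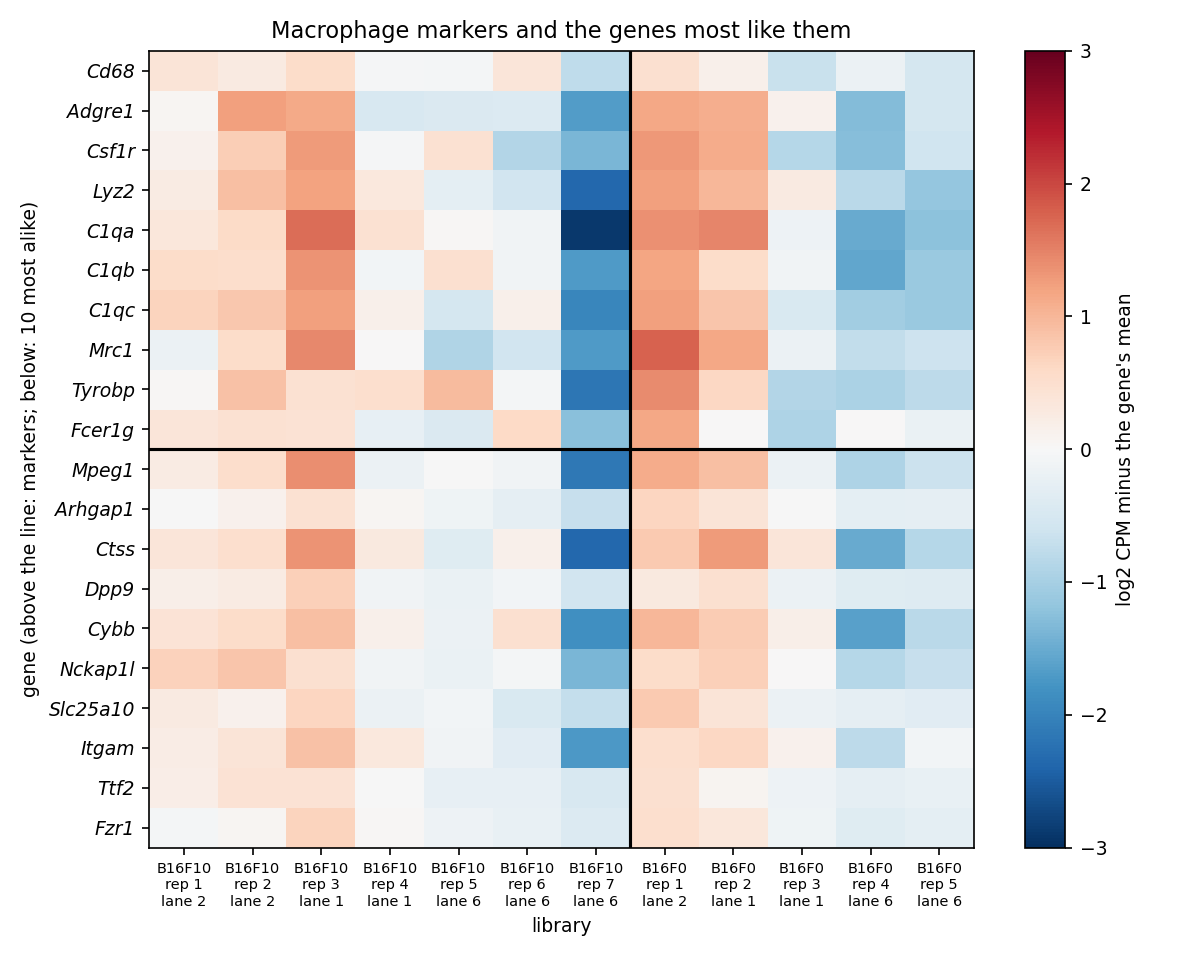
Log2 CPM of the 10 markers (above the line) and the 10 genes most like their mean (below it) in each library, as the difference from each gene's mean, with B16F10 left of B16F0. B16F10 replicate 7 is low for nearly every gene shown, and B16F10 replicate 3 and B16F0 replicates 1 and 2 are high.

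The markers belong to pathways whose other genes were read from the same fit, where 2.77% of all genes passed. Of 11 tested transcription factors of the macrophage lineage 1 was higher in B16F10 and none lower. This was Cebpb, a C/EBP factor of myeloid and many other cells, at 12.0 ± 3.33 CPM in B16F10 and 6.42 ± 1.47 CPM in B16F0 (SD; log2 fold change 0.96 ± 0.23 SE, adjusted p = 0.0466 by edgeR). Maf was at 48.2 ± 7.43 CPM in B16F10 and 44.6 ± 11.7 CPM in B16F0 (adjusted p = 0.859) and Runx1 at 26.6 ± 6.80 and 19.6 ± 2.26 CPM (adjusted p = 0.208). None of 5 tested genes of the CSF1 axis passed by edgeR or limma-voom (1 with an unadjusted p under 0.05, and 1 called higher by DESeq2), and Csf1 itself, the ligand of Csf1r, was at 12.5 ± 3.90 CPM in B16F10 and 12.98 ± 3.04 CPM in B16F0 (adjusted p = 0.808).

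Of 15 tested genes that act with ITAM signalling or inhibit it, 1 was lower in B16F10. Sirpa, an inhibitory receptor that binds CD47, was at 190.5 ± 30.2 CPM in B16F10, against 325 ± 54.6 CPM in B16F0 (log2 fold change -0.79 ± 0.16, adjusted p = 0.0151 by edgeR). Its mean was above that of the 10 markers summed, 113 CPM in B16F10 and 132 CPM in B16F0. The cells it came from were not tested. Its call was lost with the melanocytic score as a covariate (-0.50, adjusted p = 0.122 by edgeR) and with the receptor background (-0.55, adjusted p = 0.0942). The phosphatase gene Ptpn6 was at 19.3 ± 10.8 CPM in B16F10 and 36.5 ± 21.1 CPM in B16F0 (adjusted p = 0.0860), and the kinase gene Lyn at 31.6 ± 19.9 and 33.3 ± 20.4 CPM (adjusted p = 0.939). None of 9 tested receptors that signal through Tyrobp or Fcer1g passed by edgeR, DESeq2 or limma-voom, and none had an unadjusted p under 0.05; Fcgr1 and Fcgr3, Fc receptors of macrophages, were at 3.47 ± 1.59 and 3.55 ± 2.57 CPM in B16F10 and 4.27 ± 3.22 and 4.11 ± 2.51 CPM in B16F0. Of 14 tested genes of tumour macrophages and alternative activation 1 was higher in B16F10. With an unadjusted p under 0.05, 1 was higher and 4 were lower, and DESeq2 called 1 higher and 1 lower and limma-voom none. Ctsk, the collagen-degrading protease cathepsin K, was at 9.06 ± 2.92 CPM in B16F10 and 4.06 ± 3.04 CPM in B16F0 (1.39 ± 0.33, adjusted p = 0.0448). In the same list Gpnmb, which melanoma cells also make, was at 2298 ± 696 CPM in B16F10 and 2595 ± 1022 CPM in B16F0 (adjusted p = 0.887), and Apoe at 293 ± 120 and 476 ± 182 CPM (adjusted p = 0.245). Over 29 other settings Cebpb and Ctsk each kept an adjusted p under 0.05 in 11 and Sirpa in 23.

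No gene passed between the tumour lines among 16 tested complement partners of C1q, 13 scavenger and endocytic receptors, 19 lysosomal genes, 10 inflammatory activation genes, 7 genes of MHC class II presentation, 15 monocyte chemokines and their receptors or 4 monocyte markers (edgeR). With an unadjusted p under 0.05 there were 3 of the complement genes, 2 of the scavenger receptors, 3 of the lysosomal genes, 0 of the MHC class II genes and 1 of each other list, and DESeq2 called 1 complement gene lower and limma-voom none in these lists. The complement genes C2 and C4b, which act just after C1q, were at 71.9 ± 29.0 and 24.4 ± 7.16 CPM in B16F10, against 98.1 ± 49.3 and 39.3 ± 15.8 CPM in B16F0 (adjusted p = 0.517 and 0.0922 by edgeR). Stab1, a scavenger receptor of macrophages and of sinusoidal endothelium, was at 98.7 ± 71.0 CPM in B16F10 and 86.8 ± 85.9 CPM in B16F0 (adjusted p = 0.635). The MHC class II chaperone Cd74 was at 9.38 ± 4.57 and 6.33 ± 6.30 CPM (adjusted p = 0.547), and the inflammatory chemokine Cxcl9 at 15.9 ± 17.0 and 4.09 ± 4.07 CPM (adjusted p = 0.261). The lysosomal protease gene Ctsd was at 504 ± 193 CPM in B16F10 and 762 ± 318 CPM in B16F0 (adjusted p = 0.325), far above each macrophage marker on the CPM scale, and tumour cells make it too.

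Marker lists of T, B, natural killer, dendritic and mast cells and of neutrophils summed in every library to less than the lowest macrophage sum of 62.2 TPM, but the lists differ in their genes. Per length, 12 T cell genes summed to 8.19 to 32.5 TPM in B16F10 and 3.13 to 21.2 TPM in B16F0, 8 B cell genes to 2.99 to 16.7 and 2.74 to 15.3 TPM, and 8 natural killer cell genes to 1.26 to 22.3 and 2.04 to 4.17 TPM. Neutrophil genes summed to 5.89 to 25.99 TPM in B16F10 and 2.76 to 21.8 TPM in B16F0, with none of 9 measured genes passing the filter on low counts, and dendritic cell genes to 11.2 to 39.5 and 8.68 to 31.6 TPM. Mast cell genes summed to 1.68 to 18.7 TPM in B16F10 and 0.954 to 2.65 TPM in B16F0, again with none passing the filter. The pan-leukocyte gene Ptprc, which encodes CD45, was at 2.96 to 19.999 CPM in B16F10 and 7.33 to 28.1 CPM in B16F0, and was lowest in B16F10 replicate 7, as was the macrophage sum. None of the tested genes of these lists passed between the tumour lines by edgeR or limma-voom, and DESeq2 called 1 T cell gene higher in B16F10; with an unadjusted p under 0.05 there were 1 T cell gene and 1 dendritic cell gene.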

How the data were processed

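Ribosome-bound mRNA was sequenced from 12 ScriptSeq libraries, per the labels' protocols. The authors deposited whole-number counts per gene symbol. Per the submitters' processing notes, their tools included STAR 2.2.1, cutadapt 1.16 and featureCounts 1.6.0, with mm10 as the build. Annotation and strand setting were not given in the sources used here. The authors' deposited comparison table uses a decimal comma, read as a decimal point. A table of normalized values that the authors deposited had lost its decimal marks and was left out.

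Groups came from the labels and lanes from the library names. Genes passing filterByExpr of edgeR 4.0.16 (minimum count 10; 13534 of 24421 symbols) were scaled by TMM and tested in R 4.3.3 with the quasi-likelihood F test, lane and tumour line in the model, Benjamini-Hochberg adjustment and a threshold of 0.05. Standard errors are the size of the log2 fold change over the root of F. CPM uses TMM-scaled totals of tested genes. TPM uses union exon lengths of GENCODE M21 on GRCm38, found for 95.7% of the symbols. Scores are the mean log2 CPM of a list. Every pair of libraries within a group differed by more than sampling noise. The tests of the tumour line, the lanes and the endothelial slope were tried on simulated data, and that of the melanocytic slope was not.

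The 10 markers and all lists were chosen with earlier results of these data known. All 10 markers are given; of each other list, the genes named are among those past the threshold and the 3 with the highest mean CPM, and the 10 genes most like the markers' mean log2 CPM were named by Pearson's r. Other settings tried were RLE, upper quartile and library size scaling, other filters, DESeq2 1.42.0, limma-voom (limma 3.58.1), other batch terms and covariates, and fits without single libraries or sets of them.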

Additional observations from a re-analysis of the deposited data

Results flagged for a closer look

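In B16F0 replicate 1 Fcer1g stood at 5.89 CPM, while the other 4 B16F0 libraries had 1.28 to 2.60 CPM. The gap to the next library took 0.713 of the group's range. It was 1 of 24 sets of values examined, the 10 markers, their summed level and their share of counts in each tumour line, and chance alone flags about 1 in 20. B16F0 replicate 1 had the highest summed marker level of all libraries (264 CPM) and is the only B16F0 library of lane 2. The cause was not tested.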

How the results depend on the processing

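No marker passed between the tumour lines in any of 29 alternatives (adjusted p 0.206 to 0.999). Signs of these values changed for 7 of the 10 markers, and the cause was not tested. Log2 fold changes of B16F10 over B16F0 became 0.0017 for Lyz2 and 0.0079 for Fcer1g with upper quartile scaling, -0.055 for Csf1r and -0.066 for C1qa with no lane term, and 0.13 for Lyz2 and 0.22 for Fcer1g with the library name prefix in place of the lane. With the melanocytic score as a covariate they became 0.61 for Adgre1, 0.40 for Lyz2, 0.47 for Mrc1 and 0.56 for Fcer1g, and with the receptor background 0.18, 0.29, 0.23 and 0.48 for the same genes. Without lane 2 they became 0.030 for Adgre1, 0.16 for Lyz2 and 0.22 for Fcer1g. Without the 2 libraries rich in Rn45s they became -0.10 for Csf1r, -0.0032 for C1qa and -0.072 for Tyrobp, and without the 3 libraries of the highest endothelial score -0.30, -0.025 and -0.27. With each library left out in turn they ran from -0.34 to 0.089 for Adgre1, -0.21 to 0.14 for Lyz2, -0.27 to 0.21 for Fcer1g, -0.15 to 0.43 for Csf1r, -0.020 to 0.60 for C1qa and -0.028 to 0.71 for Tyrobp.

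Replicate numbers did not pair the samples, since libraries with the same number deviated together with correlations of -0.27, -0.27, -0.24, -0.29 and 0.32. With the replicate block, on 10 libraries, 20 genes were higher and 19 lower in B16F10, and the fold changes became 0.23 for Adgre1, 0.40 for Lyz2 and 0.13 for Fcer1g. Of all genes 176 were higher and 199 lower in the fit with the lane. The numbers higher and lower were 325 and 305 with the library name prefix, 321 and 314 with the melanocytic score, 495 and 397 by DESeq2, 96 and 81 without lane 2, and 111 and 125 without the 2 libraries rich in Rn45s. Those lower were 132 with library size only and 131 with no lane term. With each library left out they were 104 to 199 higher and 99 to 247 lower, with 104 and 99 without B16F0 replicate 4, and 117 to 126 lower without B16F10 replicates 1 or 2 or B16F0 replicates 1 or 5.

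The number of markers past the test of the lanes was 2 with upper quartile scaling, 5 with library size only, 4 with no filter, 4 without lane 2, 0 without the 2 libraries rich in Rn45s, 7 without the 3 endothelial-rich libraries and 0 to 4 with each library left out. Fcer1g's lane 6 over lane 1 value became 0.042 with upper quartile scaling, 0.12 without the Rn45s-rich libraries, and -0.38 to 0.28 with each library left out. Slopes on the endothelial score became -0.080 for Lyz2 and -0.10 for C1qb with library size only, -0.0068 for Lyz2 without lane 2, and -0.35 for Lyz2, -0.54 for C1qb and -0.23 for Tyrobp without the Rn45s-rich libraries, where 1 marker passed with a negative slope. Without the 3 endothelial-rich libraries they became 1.162 for Cd68, 0.0050 for Adgre1, 1.63 for C1qa, 1.62 for C1qc, 0.87 for Mrc1 and 1.56 for Fcer1g. With each library left out they ran from -0.79 to 0.28 for Csf1r, -0.60 to 0.19 for C1qa, -0.29 to 0.20 for Lyz2, -0.49 to 0.28 for C1qb and -0.22 to 0.69 for Tyrobp, and 0 to 1 marker passed. On the melanocytic score the number passing was 0 with upper quartile scaling, with library size only and without the 3 endothelial-rich libraries, 4 without the Rn45s-rich ones, and 0 to 5 with each library left out. For the lanes and both slopes, the number of all genes passing in these settings was not counted. Tyrobp's slope became -0.70 with library size only and -0.19 to 1.34 with each library left out. The log2 difference of the summed level was -0.18. With each other scaling and each library left out it moved by less than 1 SD among libraries (1.01). That SD is far larger than the difference, so this does not show a stable direction. The sign changed in some of these settings, such as without B16F0 replicate 1 and without B16F10 replicate 7. Counts went down to 3 per library for Tyrobp, 10 for C1qa and 13 for Fcer1g and C1qc.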
